A study of Mus musculus with 12 samples.

Results

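Annexins and S100a proteins are calcium-binding proteins that meet at membranes, and 15 probes for 14 of their genes were followed through 4 mouse embryonic stem (ES) cell lines. The members are all gene probes whose gene name on the array begins with Anxa or S100a, which gave 15 of the 20280 gene probes, or 14 of the 7136 genes with a symbol. They cover 9 annexin genes with 10 probes, Anxa6 having 2, and 5 S100a genes with 5 probes. The mouse RefSeq table lists 12 Anxa and 15 S100a genes. No further probe of these genes was found under another symbol. Anxa1, Anxa3 and S100a6 stand at the centre because of their low level in HP3 against EB5, so for HP3 against EB5 every value below is a description without a test. The same holds for Anxa1, Anxa2, Anxa3, Anxa5 and S100a6, which the study lists for that comparison, wherever HP3 or EB5 arrays enter. Only the change of HP4 against RKPG9 uses none of those arrays, and there each member's test is given. The spread behind its SE and p-value was still estimated from all 12 arrays, HP3 and EB5 included.

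The study asked what loss of Rex1 (Zfp42), a zinc-finger protein related to Yy1, does to ES cells. EB5 is wild type at Rex1. RKPG9 is Rex1+/-, with a pacEGFP cassette (puromycin resistance joined to a green fluorescent protein) in place of the beginning of the coding sequence on 1 allele. HP3 and HP4 are Rex1-/-. Such lines were made from Rex1+/- cells carrying the cassette, either from RKPG9 through gene conversion in high-dose puromycin or with another targeting vector and hygromycin, and by which route HP3 and HP4 were made is not given in the sources used here. By either route they keep the cassette, which EB5 lacks. EB5 and RKPG9 are the only line of their genotype. According to the methods the ES cells were E14tg2a and its derivatives, all grown without feeder cells, on gelatin and with leukemia inhibitory factor. Each line was measured on 3 arrays, 12 in all. Line RNA was labelled with Cy3, and a universal mouse reference RNA, a pool from cultured mouse cell lines, was labelled with Cy5 on every array. A level is the log2 ratio of Cy3 over Cy5, so 0 is the level of the reference, and a change is a difference between such levels. A negative level is therefore a level below that pool only. Whether a line's arrays stem from different cultures is not stated, and the p-values then measure no more than how these arrays vary, possibly for technical reasons.

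Annexins bind acidic phospholipids when calcium rises, through a conserved core that lies flat on the membrane, and they take part in membrane repair, vesicle traffic and the linking of membrane to the actin cortex. S100 proteins are small EF-hand proteins that usually pair up, and on calcium binding they expose a surface for partner proteins. The families meet directly: S100a10 joins Anxa2 in a stable complex, S100a11 binds Anxa1, and S100a6 (calcyclin) binds several annexins. These genes are usually abundant in differentiated adherent cells such as fibroblasts and epithelia and low in undifferentiated ES cells.

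The 250 bases upstream of the annotated start are shown for the genes with the lowest levels against the reference for which RefSeq (GRCm38.p6) gave a promoter. They are Anxa1 at chr19:20390672-20390921 on the minus strand, Anxa2 at chr9:69453433-69453682 on the plus strand, Anxa5 at chr3:36475888-36476137 on the minus strand and S100a6 at chr3:90612644-90612893 on the plus strand. Each is written 5′ to 3′ on the strand of its gene and ends at the base before the start. Capitals mark matches on either strand. The TATA box was searched as TATAAA. For the GC box the letters were GGGCGG. The AP-1 site was taken as TGANTCA. For a Yy1-type core, Rex1 being related to Yy1, the letters were CCATNTT.
Anxa1: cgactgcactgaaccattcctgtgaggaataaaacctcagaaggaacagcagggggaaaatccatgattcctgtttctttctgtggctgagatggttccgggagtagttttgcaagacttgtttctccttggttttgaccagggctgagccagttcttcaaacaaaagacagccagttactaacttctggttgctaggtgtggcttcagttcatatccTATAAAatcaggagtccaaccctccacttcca
Anxa2: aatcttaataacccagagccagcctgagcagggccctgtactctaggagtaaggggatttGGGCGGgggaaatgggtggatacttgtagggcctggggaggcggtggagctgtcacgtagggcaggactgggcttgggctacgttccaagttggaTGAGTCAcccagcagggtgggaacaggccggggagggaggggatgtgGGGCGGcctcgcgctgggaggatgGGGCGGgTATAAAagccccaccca
Anxa5: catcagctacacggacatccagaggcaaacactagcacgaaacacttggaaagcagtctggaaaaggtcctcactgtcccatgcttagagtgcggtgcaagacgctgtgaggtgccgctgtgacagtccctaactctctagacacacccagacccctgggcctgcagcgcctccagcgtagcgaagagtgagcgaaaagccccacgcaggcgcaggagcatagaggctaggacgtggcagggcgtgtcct
S100a6: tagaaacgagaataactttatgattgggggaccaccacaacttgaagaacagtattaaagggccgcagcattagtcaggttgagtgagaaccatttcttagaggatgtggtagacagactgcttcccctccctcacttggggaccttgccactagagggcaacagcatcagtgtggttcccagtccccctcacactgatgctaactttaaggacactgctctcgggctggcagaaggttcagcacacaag
The Anxa1 window held a TATA box that began 32 bases before the start. In the Anxa2 window a TATA box began 17 bases before the start, an AP-1 site 95 bases before it and 3 GC boxes 190, 48 and 24 bases before it, with no overlap between them. The Anxa5 and S100a6 windows held none of these letters. RefSeq gave 13 promoters for 11 of the 14 genes, and names Anxa3, Anxa6 and S100a10 only. Of the 13, 2 held a TATA box, 6 a GC box, 2 an AP-1 site and 1 (Anxa8) the Yy1-type core. Over 32851 mouse promoters of the same length the shares were 12.4%, 32.7%, 6.75% and 12.4% in that order. A match is a match of letters only. All 5 S100a genes lie on chromosome 3, as does Anxa5. The other annexin genes lie on chromosomes 5 (Anxa3), 6 (Anxa4), 9 (Anxa2), 11 (Anxa6), 14 (Anxa7, Anxa8 and Anxa11) and 19 (Anxa1).

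Among array facts that touch these probes, the EB5 arrays were extracted in a scanner session of their own, with a global background adjustment switched on, whereas RKPG9, HP3 and HP4 shared a session without it. Session and line cannot be told apart wherever EB5 is one side of a comparison, while HP3, HP4 and RKPG9 can be compared within their session. The HP4 arrays were the dimmest, with 85.3% to 86.1% of gene probes well above background in Cy3 against 87.1% to 94.5% in the other lines, and a median Cy3 signal of 481 to 487 against 520 to 577. Before background subtraction the local Cy3 background at the member spots was 387 to 417 in all lines. Of the 15 probes, 14 were well above background in Cy3 on all 12 arrays, the exception being S100a9, and all 15 were in Cy5. Of 180 member spots, 5 were left out as outliers. Zfp42 itself stayed high, with a mean log2 ratio at its brighter probe of 5.98 for EB5, 6.02 for RKPG9, 5.99 for HP3 and 5.44 for HP4. The knockout allele is described as still giving a long fused transcript, so this probe does not check the labels. The ES cell markers (10 of 12 measured) were well above background in every line, with a list mean per array of 2.61 to 2.82 in EB5, 2.85 to 3.03 in RKPG9, 2.96 to 3.06 in HP3 and 2.56 to 2.75 in HP4.

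**Figure D1:**
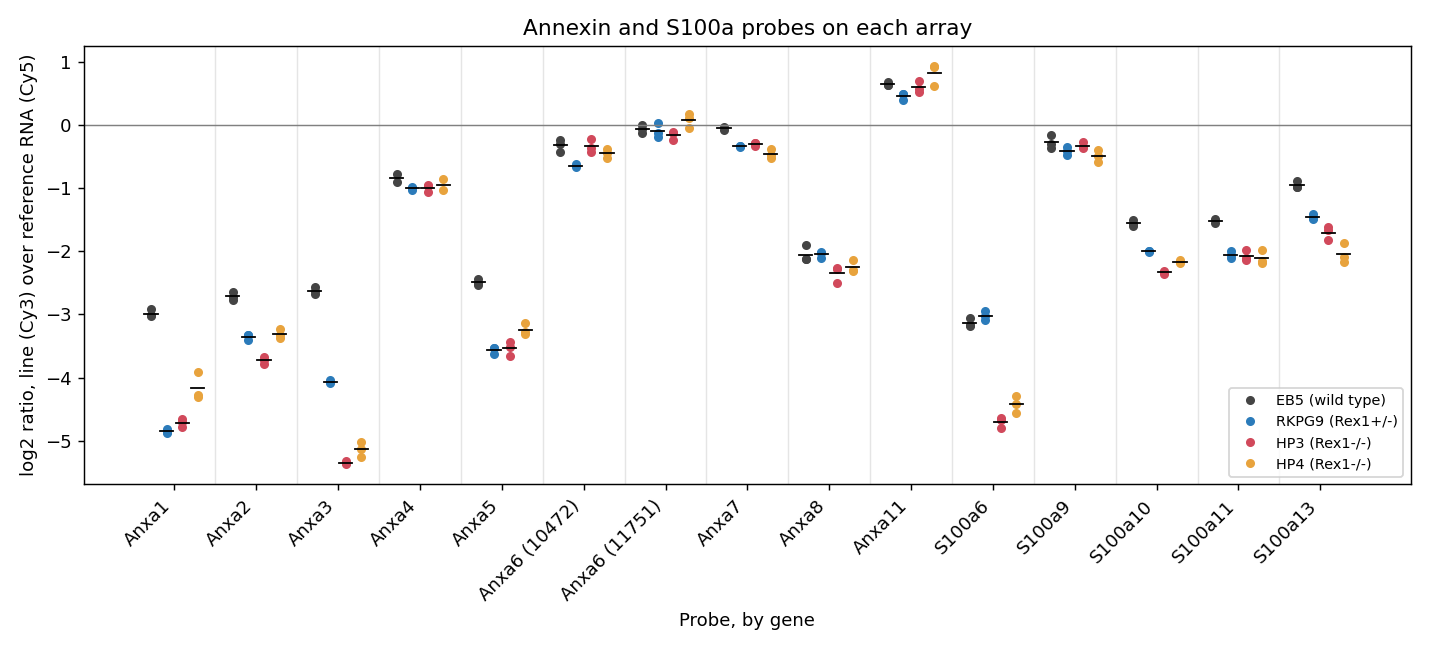
Level of each annexin and S100a probe on each array, as the log2 ratio of line RNA (Cy3) over reference RNA (Cy5); dots are arrays, up to 3 per line, and bars are line means. Anxa1, Anxa3 and S100a6 show 3 different orders of the lines, while Anxa4, both Anxa6 probes and S100a9 stay within 0.33 between line means.

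Anxa3, a membrane-binding annexin known from neutrophil granules, had the widest range of the 15 probes, 2.72 between line means. Its log2 ratio was -2.68, -2.57 and -2.62 on the EB5 arrays. On the RKPG9 arrays it was -4.07, -4.04 and -4.08. The 2 knockout lines were lower still, and no array of either overlapped RKPG9 or EB5. HP4 had -5.02, -5.25 and -5.14. HP3 had -5.37, -5.34 and -5.32. The order of the lines was thus EB5, RKPG9, HP4, HP3, with no overlap between any neighbours. HP4 fell below HP3 with median centring (by -0.26), with an offset of 0 (-0.06), and from the processed signals and in the authors' table (-0.08 each). Against EB5, Anxa3 was lower by a factor of 2.71 in RKPG9 (log2 change -1.44, SE 0.05), 6.60 in HP3 (-2.72) and 5.70 in HP4 (-2.51). With no background subtracted the last 2 changes were -1.59 and -1.05, and from the processed signals the HP4 change was -3.19. In RNA from a whole culture, fewer cells of a type and less RNA per cell cannot be told apart.

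Within the shared session, Anxa3 was 2.10-fold lower in HP4 than in RKPG9 (log2 change -1.07, SE 0.05, limma adjusted p = 5.77e-08), a direction that turned to 0.09 only when no background was subtracted, where it did not pass the threshold. The Cy3 signal of its spot before subtraction was 1065 to 1112 in RKPG9 and 475 to 516 in HP4, close to the local background named above. In HP3 it was 541 to 662, and the change from RKPG9 was -1.28 (SE 0.05), or -0.45 with no background subtracted.

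S100a6, the calcyclin gene, separated the knockout lines from both others. Its log2 ratio was -3.18, -3.05 and -3.17 in EB5. In RKPG9 it was -2.95, -3.03 and -3.09, which overlapped EB5. The log2 change from EB5 to RKPG9 was 0.11 (SE 0.07). HP3 had -4.66, -4.65 and -4.80. HP4 had -4.56, -4.29 and -4.42, so every array of both knockout lines lay below every array of EB5 and RKPG9. S100a6 was 2.64-fold lower in HP4 than in RKPG9 (log2 change -1.40, SE 0.07, limma adjusted p = 6.17e-08). Over the other ways of processing the arrays this change ran from -2.18 to -1.04. The change from RKPG9 to HP3 was -1.68 (SE 0.07). Against EB5 it was -1.57 in HP3 and -1.28 in HP4, the latter -2.11 with median centring.

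The reference spot of S100a6 was saturated in Cy5 on all 12 arrays, at a signal of 65517, so its ratio is not exact. No Cy3 spot of S100a6 was saturated. The Cy3 signal was 2965 to 3852 in EB5 and 3732 to 4019 in RKPG9, and fell to 1233 to 1452 in HP3 and 866 to 1024 in HP4. From the Cy3 channel alone, taken after loess and after scaling of the mean intensities between arrays, the change from RKPG9 to HP4 was -1.34. The saturated Cy5 signal entered that normalization, so this value is not free of it.

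Anxa1, which binds formyl peptide receptors and was first known as a phospholipase inhibitor, followed neither pattern. Its log2 ratio was -3.01, -2.92 and -3.03 in EB5. RKPG9, still with 1 intact Rex1 allele, was the lowest line, with -4.82, -4.86 and -4.88. HP3 was next with -4.66, -4.71 and -4.79, and HP4 had -3.91, -4.31 and -4.28. RKPG9 and HP3 did not overlap, but their difference of 0.13 (SE 0.09) was small beside that to EB5. Against EB5, Anxa1 was lower by a factor of 3.64 in RKPG9, 3.32 in HP3 and 2.26 in HP4. These log2 changes of -1.87, -1.73 and -1.18 shrank to -1.07, -0.94 and -0.17 with no background subtracted, where the last was not called, and that of HP4 grew to -1.77 from the processed signals and -1.79 with median centring.

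In HP4, Anxa1 was 1.61-fold higher than in RKPG9 (log2 change 0.69, SE 0.09, limma adjusted p = 7.73e-05). The direction held in all other ways of processing, from 0.13 to 0.90, but with median centring in place of loess the change did not pass the threshold. The first HP4 array stood apart at -3.91, and with each array left out in turn the change was 0.56 to 0.76. Before background subtraction the Cy3 signals of Anxa1 were 889 to 1096 in EB5, 589 to 603 in RKPG9 and 590 to 619 in HP3. In HP4 they were 501 to 522, lower than in RKPG9 and near the local background named above. Cy5 signals were lower in HP4 too, 10384.5 to 15117.5 against 16171.6 to 16764.9 in RKPG9. The rise in HP4 is thus one of the normalized ratio.

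**Figure D2:**
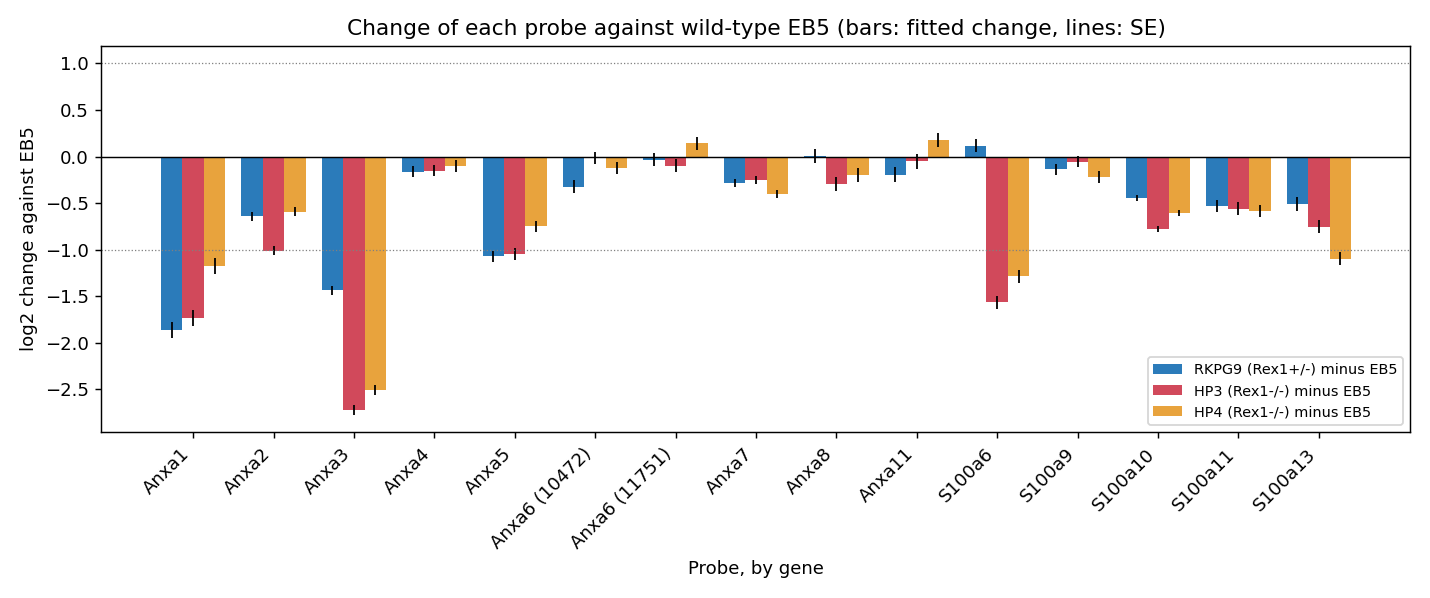
Fitted log2 change of each probe against EB5 for RKPG9, HP3 and HP4; lines are standard errors, dotted lines mark a 2-fold change, and 3 arrays stand behind each line. S100a6 overlapped EB5 in RKPG9 and was low in both knockout lines. Anxa1, Anxa2, Anxa5, S100a10 and S100a11 lay below EB5, which had its own scanner session, in all 3 lines. In HP4, Anxa1, Anxa5 and S100a11 shrank to -0.17, -0.01 and -0.08 with no background subtracted. Over the other ways of processing, the HP4 change of Anxa2 shrank to as little as -0.17.

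Against EB5 the members lay mostly below 0 in every line. In HP3 all 15 changes were negative, 10 were called lower at an adjusted p under 0.05, and 5 of these were more than 2-fold (Anxa1, Anxa2, Anxa3, Anxa5 and S100a6). The median change was -0.56, against -0.02 over all probes. Over all probes the first rule called 30.5% (19.1% lower, 11.4% higher) and the second 0.217% (0.183% lower, 0.0346% higher), and since the genes at the centre were chosen on this comparison nothing is read from these counts. In HP4 10 were called lower and none higher, with a median of -0.58, and 44.8% of all probes were called (26.5% lower, 18.4% higher). More than 2-fold lower there were 4 (Anxa1, Anxa3, S100a6 and S100a13), against 0.291% of all probes (0.287% lower, 0.00494% higher). In RKPG9 9 were called lower and none higher, with a median of -0.32, and 34.1% of all probes were called (21.6% lower, 12.6% higher). The probes past 2-fold in RKPG9 were 3 (Anxa1, Anxa3 and Anxa5), against 0.524% (0.371% lower, 0.153% higher). These comparisons share the EB5 arrays, against which the listed genes were chosen, so nothing is read from these counts either. Among the 10 probes of the genes not listed, 5 were called lower and none higher in RKPG9 and likewise in HP4, with medians of -0.24 and -0.21.

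Anxa2, which joins S100a10 at the membrane, had log2 ratios of -2.73, -2.65 and -2.77 in EB5 and -3.33, -3.33 and -3.41 in RKPG9. In HP3 it was lower, with -3.67, -3.78 and -3.72. HP4, with -3.23, -3.32 and -3.37, overlapped RKPG9. The change from RKPG9 to HP4 was 0.05 (95% interval -0.06 to 0.15, limma adjusted p = 0.448), a value that turned to -0.55 with median centring and was called higher, at 0.30, with no background subtracted. From RKPG9 to HP3 it was -0.37 (SE 0.05), or -0.15 in the Cy3 channel alone.

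S100a10, the partner of Anxa2, was measured with a small spread, an SD of at most 0.05 in any line. Its log2 ratio was -1.59, -1.50 and -1.57 in EB5. RKPG9 had -2.01, -1.99 and -2.00, HP4 -2.14, -2.17 and -2.19, and HP3 -2.31, -2.33 and -2.36. No lines overlapped, and the order EB5, RKPG9, HP4, HP3 was that of Anxa3. With median centring HP4 lay below HP3 (-0.34). S100a10 was lower than in EB5 by 0.44 in RKPG9 on the log2 scale (change -0.44, limma adjusted p = 1.10e-06) and changed by -0.61 in HP4 (adjusted p = 1.84e-07), or by -1.29 with median centring. Within the session it fell from RKPG9 to HP3 (change -0.33, SE 0.03, adjusted p = 1.45e-05), a change of -0.14 in the Cy3 channel alone that was not called. The change from RKPG9 to HP4 was -0.16 (adjusted p = 0.00181), which turned to 0.10 in the Cy3 channel alone and was called neither there nor without background subtraction (-0.01).

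Anxa5, the phosphatidylserine-binding annexin used to stain dying cells, had -2.50, -2.44 and -2.53 in EB5. The other lines lay about 1 lower on the log2 scale, with -3.53, -3.54 and -3.62 in RKPG9 and -3.44, -3.66 and -3.51 in HP3, which overlapped. HP4 had -3.13, -3.29 and -3.31. From RKPG9 to HP4 Anxa5 changed by 0.32 (SE 0.06, limma adjusted p = 0.00152), but this turned to -0.16 with median centring, and was not called with an offset of 0, from the processed signals or in the authors' table. Its Cy3 signals in HP4 were 494 to 499, near background, and with no background subtracted its change from EB5 to HP4, -0.75, was -0.01.

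S100a11, which binds Anxa1, was lower in all 3 other lines than in EB5 and alike among them. In EB5 the 2 usable arrays gave -1.49 and -1.55. RKPG9 had -1.99, -2.07 and -2.10, HP3 -1.99, -2.14 and -2.11, and HP4 -1.98, -2.18 and -2.15, all overlapping. The changes from EB5 were -0.53 in RKPG9 (limma adjusted p = 0.000112) and -0.58 in HP4 (adjusted p = 6.75e-05). Within the session the change from RKPG9 was -0.03 in HP3 (95% interval -0.16 to 0.11) and -0.05 in HP4 (95% interval -0.18 to 0.08, adjusted p = 0.537). The latter turned to 0.25 when no background was subtracted, and was called lower with median centring (-0.55), with an offset of 0 (-0.19), from the processed signals and in the authors' table (-0.22 each). Without background subtraction the change from EB5 to HP4 was -0.08 and was not called.

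S100a13, which takes part in the release of signal-less growth factors from cells, fell stepwise over the lines. Its log2 ratio was -0.98, -0.98 and -0.89 in EB5 and -1.47, -1.41 and -1.49 in RKPG9. It was -1.67, -1.82 and -1.62 in HP3 and -1.88, -2.17 and -2.09 in HP4, with no overlap between lines. S100a13 was lower in HP4 than in RKPG9 (log2 change -0.59, SE 0.07, limma adjusted p = 5.81e-05). The change was -0.02 and not called when no background was subtracted, and lay between -1.03 and -0.59 in the other ways of processing. The change to HP3 was -0.25 (adjusted p = 0.0284), and this call held in only 1 of the 6 fits that left out an array, the one without HP3 array 3, with values of -0.29 to -0.19. Without background subtraction it was -0.07 and not called. Against EB5 it was -0.51 in RKPG9 (adjusted p = 0.000187) and -1.10 in HP4 (adjusted p = 7.62e-07), the latter -0.35 with no background subtracted.

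**Figure D3:**
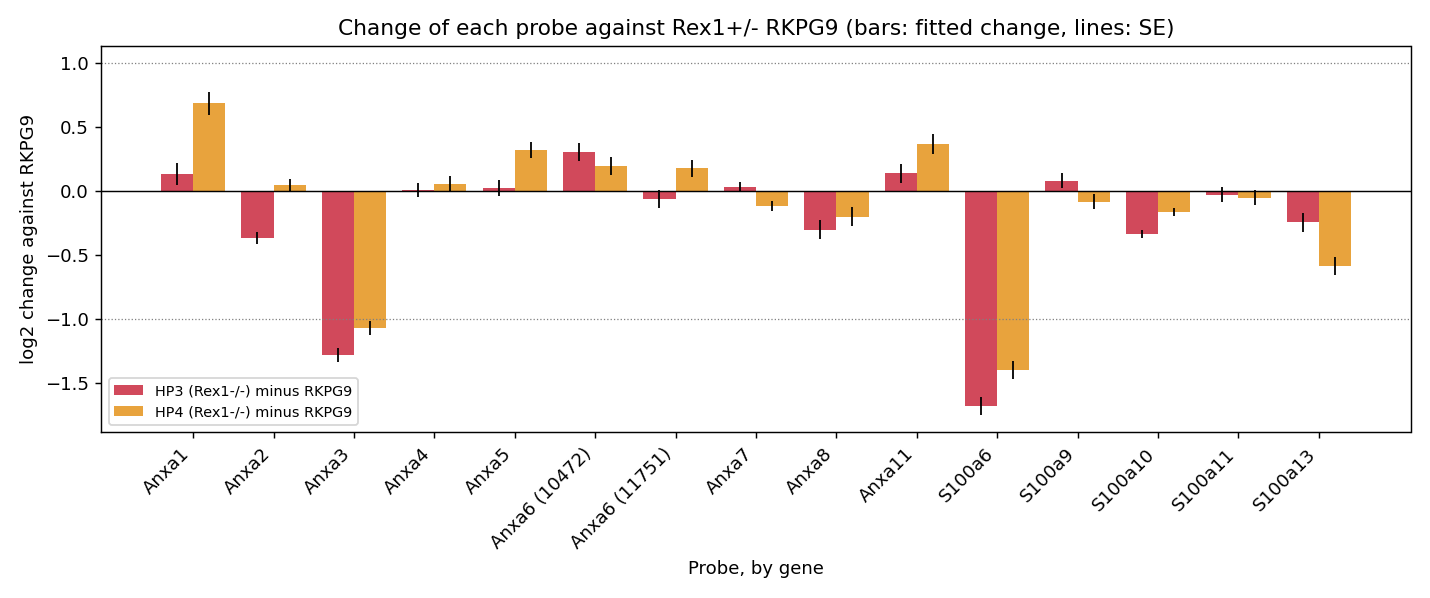
Fitted log2 change of each probe against Rex1+/- RKPG9 for the Rex1-/- lines HP3 and HP4, all in 1 scanner session; lines are standard errors and dotted lines mark a 2-fold change. Anxa3 and S100a6 passed 2-fold in both knockout lines (with no background subtracted Anxa3 was -0.45 in HP3 and turned to 0.09 in HP4), and the remaining probes stayed within 0.69 of 0.

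Against RKPG9, within the session, members were called in both directions. In HP3, 6 probes were called lower and 1 higher (Anxa6, at 1 probe), a median of -0.03 against 0.00 over all probes, where 22.7% of all probes were called (10.1% lower, 12.6% higher). In HP4, 5 were called lower and 4 higher, a median of -0.05 against 0.01, where 40% of all probes were called (19.2% lower, 20.8% higher). Past 2-fold lay Anxa3 and S100a6 in both lines, 2 of 15, against 0.281% of all probes for HP3 (0.133% lower, 0.148% higher) and 0.38% for HP4 (0.242% lower, 0.138% higher). The HP3 counts include the genes listed for that line, so nothing is read from them. Among the 10 probes of the other genes, 3 were called lower and 1 higher in HP3, and 3 and 2 in HP4. The split of 5 lower and 4 higher in HP4 depended on the scaling. It was 1 and 6 without background subtraction, 8 and 2 with an offset of 0, 7 and 2 from the processed signals, 8 and 2 in the authors' table, 11 and 3 with median centring and 3 and 2 in the Cy3 channel alone.

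The remaining annexins moved little. Anxa7, the annexin first named synexin, changed from EB5 by -0.28 in RKPG9 (limma adjusted p = 0.000523) and -0.40 in HP4 (adjusted p = 5.12e-05), and from RKPG9 to HP4 by -0.12 (adjusted p = 0.0333). That last call was lost without any 1 of the RKPG9 arrays or without HP4 array 2 or 3, with values of -0.16 to -0.09 over the arrays left out. It was also lost without background subtraction (-0.05), from the processed signals and in a fit of the 2 lines. In the Cy3 channel alone none of these 3 Anxa7 changes was called (-0.03, -0.21 and -0.18). Anxa11, linked to RNA granules, was the only member with all line means above the reference, at 0.46 (RKPG9), 0.60 (HP3), 0.65 (EB5) and 0.83 (HP4). It was higher in HP4 than in RKPG9 (log2 change 0.37, SE 0.08, adjusted p = 0.00233), with the same direction in every other way of processing and no call without background subtraction or in the Cy3 channel alone. The Anxa11 spot was dim in both channels. Before subtraction its Cy3 signal was lower in HP4 (498 to 542) than in RKPG9 (563 to 588), as was Cy5 (567 to 670 against 668 to 713). Its rise is thus one of the normalized ratio. Anxa8 had line means of -2.05 in EB5 and RKPG9, -2.35 in HP3 and -2.25 in HP4. It was lower in HP3 than in RKPG9 (change -0.30, adjusted p = 0.0118), but by -0.07, not called, without background subtraction. From RKPG9 to HP4 its change was -0.20 (SE 0.07, adjusted p = 0.0522), which was called lower in 6 of 10 alternatives, among them median centring (-0.66), the processed signals (-0.51) and an offset of 0 (-0.42).

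Anxa6, an annexin with a duplicated core, had 2 probes that did not move together. Probe A_65_P10472, with Cy3 signals of 846 to 1735, was lower in RKPG9 than in EB5 (change -0.32, adjusted p = 0.00494, not called in the Cy3 channel alone) and higher in HP3 than in RKPG9 (0.31, adjusted p = 0.00985). Without the first RKPG9 array the last value was 0.29 and no longer called, nor was it called with median centring or in the Cy3 channel alone. The value for HP4 against RKPG9 was 0.20 (adjusted p = 0.0473), but it turned to -0.37 with median centring and was called in only 1 of the 6 fits that left out an array, with values of 0.17 to 0.24. Probe A_65_P11751 was dim, with Cy3 signals of 463 to 506, and was not called in those comparisons, with a change of 0.18 from RKPG9 to HP4 (adjusted p = 0.0623). Anxa4 had line means within a range of 0.16 and was called in none of the comparisons tested. Its change from RKPG9 to HP4 was 0.06 (95% interval -0.08 to 0.19, adjusted p = 0.474), which turned to -0.40 with median centring.

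S100a9, a subunit of calprotectin in myeloid cells, sat at the background. It was not well above background in Cy3 on any HP4 array or on 2 of the 3 HP3 arrays. Its fitted change was -0.08 for HP4 against RKPG9 (limma adjusted p = 0.31) and -0.22 for HP4 against EB5 (adjusted p = 0.0125), which turned to 0.49 and 0.48 with median centring. The latter was -0.16 and not called without EB5 array 3.

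**Figure D4:**
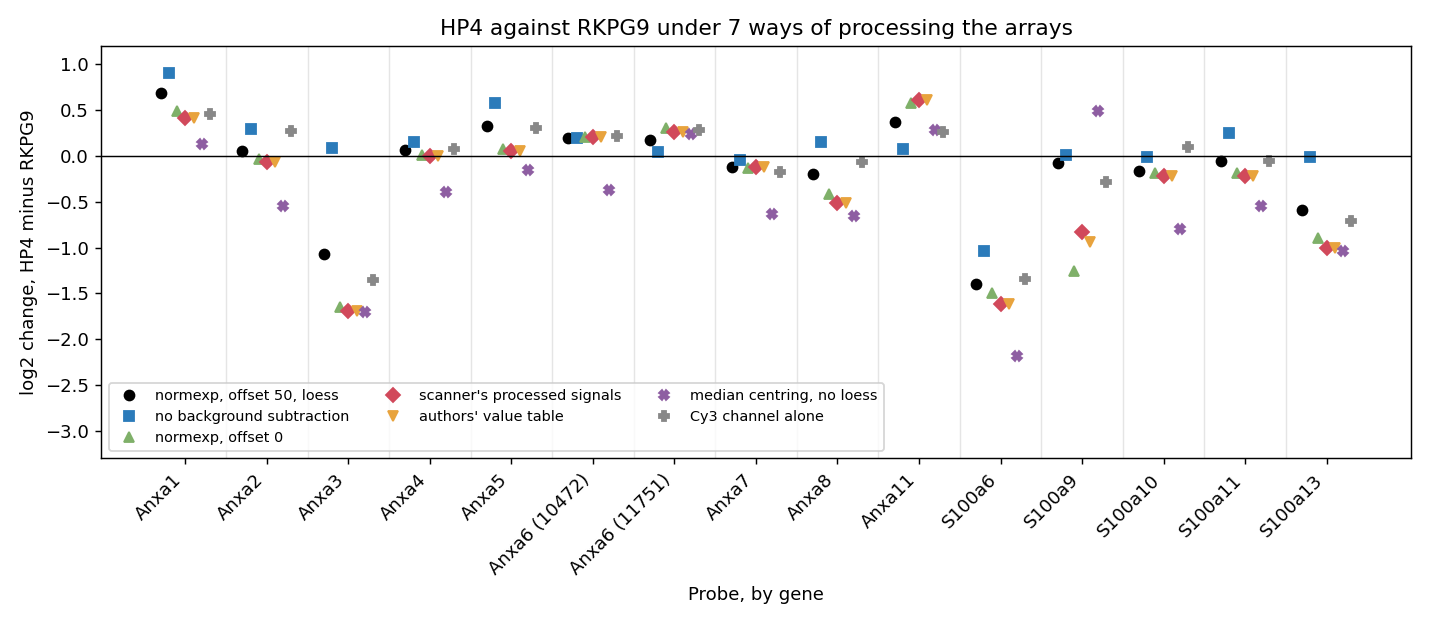
Log2 change from RKPG9 to HP4 of each probe under 7 ways of processing the arrays, each point being a fitted change over 3 arrays per line. S100a6 lay between -2.18 and -1.04 throughout, while Anxa3 lay between -1.70 and 0.09, the latter with no background subtracted, and Anxa2, Anxa4, Anxa5 and 1 Anxa6 probe fell below 0 with median centring.

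Both HP3 and HP4 are Rex1-/-, and the genes listed on HP3 are left out of this comparison. Of the 10 probes of the other genes, 3 were called higher and 2 lower in HP4 than in HP3, with a median of 0.01 against 0.00 over all probes, where 28.5% of all probes were called (14.7% lower, 13.7% higher). The split turned to 2 higher and 7 lower with median centring. None of the 15 probes passed 2-fold, against 0.0247% of all probes. S100a13 changed by -0.34 from HP3 to HP4 (limma adjusted p = 0.00494), and by 0.05 with no background subtracted. Anxa11 changed by 0.23 (adjusted p = 0.0422, 0.05 and not called without background subtraction) and Anxa7 by -0.15 (adjusted p = 0.0167), with the same signs in every other way of processing. The Anxa11 call was lost without HP3 array 1 or 3 or HP4 array 2 or 3, with values of 0.18 to 0.33, and the Anxa7 call without HP3 array 3 or HP4 array 3, with values of -0.19 to -0.12.

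The probes most like Anxa1, Anxa3 and S100a6 over the 12 arrays were found by the Pearson r of the log2 ratio, among 102 named probes above background in at least 1 line with a range of line means over 1. Since 12 arrays hold only 4 lines, r describes mainly how the 4 line levels are spaced, and a high r does not need the same order. For Anxa1 and the probes named as most like it, EB5 stood highest, and EB5 had its own scanner session. Most like Anxa1 were Fhl2 (r = 0.987), Gsn, the gelsolin gene (0.978), a probe named for osteonectin (0.973), Tubb6 (0.972) and Krt18, a simple-epithelial keratin (0.971). Fhl2 had line means of -1.84 (EB5), -3.42 (RKPG9), -3.43 (HP3) and -3.07 (HP4). Among the members with a value on all 12 arrays, which leaves out Anxa4, Anxa7, S100a11 and an Anxa6 probe, Anxa5 was closest to Anxa1 (0.99), followed by Anxa2 (0.90), while S100a6 was far from it (0.33). Most like Anxa3 were the carnitine carrier Slc25a20 (0.99), Perp (0.99), the growth factor gene Igf2 (0.99), Arih2 (0.98) and Lgals1, a galectin gene (0.98), and among those members S100a10 (0.98) and S100a13 (0.92). Most like S100a6 were Anapc10 (0.97), Ptgr1 (0.965), Hs3st3b1 (0.96), Slc38a4 (0.95) and Ciao2a (0.93). Ptgr1 had 1.30 (EB5), 1.63 (RKPG9), 0.47 (HP3) and 0.44 (HP4).

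Some markers of other cells moved as Anxa1 did, and others did not. Of 7 fibroblast and feeder cell markers measured (of 12), all were well above background in every line, and the list mean per array was -2.72 to -2.49 in EB5, -3.09 to -3.07 in RKPG9, -3.15 to -2.68 in HP3 and -2.70 to -2.57 in HP4. Of these, 5 rose and none fell from RKPG9 to HP4, where 20.8% of all probes were called higher and 19.2% lower. Fn1 and Twist1 were not called. In the authors' table the change of Dcn was -0.01 and that of Pdgfrb shrank. Vim, the vimentin gene, had -3.54 (EB5), -5.04 (RKPG9), -4.57 (HP3) and -4.19 (HP4), and rose by 0.85 from RKPG9 to HP4 (adjusted p = 4.08e-07), or by 0.21, not called, with median centring. Of 7 trophoblast markers found by symbol (of 10), 6 were well above background on all arrays in EB5 and 5 in each other line, and the list mean was -0.08 to -0.01 in EB5, -0.61 to -0.57 in RKPG9, -0.69 to -0.67 in HP3 and -0.66 to -0.57 in HP4. Krt8, which the study lists as lower in HP3 than in EB5, was not found by symbol and is not among the 7. Krt18 had -0.56 in EB5 and -3.08 in RKPG9, a change of -2.52 (adjusted p = 2.92e-10). Of the 7, 4 were lower and 1 higher in RKPG9 than in EB5, the latter being Tfap2c (0.31, adjusted p = 0.00715), while Eomes and Hand1 were not called. From RKPG9 to HP4 3 rose and 1 fell, Tfap2c by 1.11 on the log2 scale (change -1.11). The part of other cells in the levels of Anxa1, Anxa2 and Anxa5 was not tested.

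The partners, receptors and targets of annexins and S100 proteins gave 14 measured genes of 20. From RKPG9 to HP4 3 rose, 1 fell and 10 were not called, with a median of 0.03, and from RKPG9 to HP3 the counts were 3, 1 and 10 as well. Over all probes 20.8% were called higher and 19.2% lower in HP4, and 12.6% and 10.1% in HP3. Iqgap1, a cytoskeletal scaffold that binds S100 proteins, rose in HP4 by 0.62 (adjusted p = 0.000108). Myh9, the non-muscle myosin chain bound by S100 proteins, fell by 0.79 on the log2 scale (change -0.79, adjusted p = 2.27e-06). Dysf, a membrane repair gene, changed by 0.29 (adjusted p = 0.000274), which turned to -0.14 with median centring and to -0.04 with an offset of 0 and in the processed signals. Against EB5, 7 partners were lower and 1 higher in HP4 (26.5% and 18.4% over all probes), and 7 and 0 in RKPG9 (21.6% and 12.6%).

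Other calcium sensors and calcium-binding proteins were measured for 26 genes of 35. In HP4 6 were higher and 8 lower than in RKPG9 (20.8% and 19.2% over all probes), with a median of 0.01. Tesc, an EF-hand protein that binds a sodium-proton exchanger, rose by 0.68 (adjusted p = 1.53e-05), Lcp1, the leukocyte plastin gene, rose by 0.40 (adjusted p = 0.000937, 0.04 and not called with median centring and from the processed signals), and Calr, the calreticulin gene, fell by 0.48 on the log2 scale (change -0.48, adjusted p = 7.19e-06). Against EB5, 18 were lower and 3 higher in HP4, with a median of -0.23, and 17 and 2 in RKPG9, with a median of -0.20, where the shares over all probes were 26.5% lower and 18.4% higher in HP4 and 21.6% and 12.6% in RKPG9. The list of S100 genes outside the S100a symbols and S100 fused-type genes gave 3 measured of 7. Of these, S100pbp is named for binding an S100 protein and is not itself an S100 gene. From RKPG9 to HP4 S100pbp changed by 0.32 (adjusted p = 2.69e-05, 0.07 and not called with median centring) and S100g, an intestinal calcium carrier, by 0.24 (adjusted p = 0.0483), while Flg was not called. The S100g call was lost in 5 of the 6 fits that left out an array, all but the one without RKPG9 array 2, and without RKPG9 array 3 the change was 0.14.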

How the data were processed

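Agilent NIA Mouse arrays, 12 in all, measured RNA from 4 ES cell lines. The deposited intensities are spot mean signals and local background medians read with Agilent Feature Extraction 7.5.1. The deposited log10 ratio is of Cy5 over Cy3 from the scanner's processed signals, and the authors' log10 value table was found to be minus that ratio plus a constant per probe (93.6% to 97.6% of differences within 0.01, column medians 2.87 to 2.88). The genome build of the probes was not given in the sources used here.

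Signals were corrected by normexp (offset 50), loess-normalized within arrays with control, retired and outlier spots left out, and averaged per probe. All 12 arrays entered 1 fit in limma 3.58.1 under R 4.3.3 (8 residual and 3.41 prior degrees of freedom), and p-values were Benjamini-Hochberg adjusted over all probes with a value, of 20280. Probes were called at an adjusted p under 0.05, with and without a change over 2-fold. The scripts were tested on simulated data. Other tools were the R package data.table, version 1.17.8, and Python 3.11.15, pandas 2.3.3, numpy 2.4.6 and matplotlib 3.10.9. Precision is limited by how few arrays each line has.

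The members and the gene lists were chosen with earlier results of these data known. The 8 lists are ES cell, fibroblast and feeder cell, trophoblast and extraembryonic endoderm markers, further S100 genes with S100pbp, partners and targets, other calcium-binding proteins, and reference genes. A list gene counted as measured only if a probe carried its symbol. Of 20280 probes 9196 carried a symbol, so a gene not counted as measured can still be on the array. Named are all members, up to 3 genes of each list with the largest called change from RKPG9 to HP4, and the 5 probes most like Anxa1, Anxa3 and S100a6. Vim, Krt18, Tfap2c, Eomes, Hand1, Flg and Zfp42 are also given in other comparisons, chosen after their values were seen. Alternatives were other background corrections, processed signals, the authors' table, median centring, the Cy3 channel alone, outliers kept, a filter on dim probes, fits of 2 lines, a replicate block and each array left out. The Cy3 channel alone was taken after loess and scaling of the mean intensities of both channels between arrays, so Cy5 still entered its normalization.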

Additional observations from a re-analysis of the deposited data

Results flagged for a closer look

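Of the 10 probes of genes not listed on HP3, 5 had a change against RKPG9 that differed between HP4 and HP3, by the HP4 against HP3 comparison of the fit. Over all probes 28.5% were called in that comparison (14.7% lower, 13.7% higher). It is the comparison already given above, since RKPG9 drops out of the difference. The difference, HP4 minus HP3 on the log2 scale, was 0.24 for the dim Anxa6 probe A_65_P11751 (adjusted p = 0.0239), -0.15 for Anxa7 (adjusted p = 0.0167), 0.23 for Anxa11 (adjusted p = 0.0422), 0.17 for S100a10 (adjusted p = 0.00307) and -0.34 for S100a13 (adjusted p = 0.00494). For the genes listed on HP3, whose low HP3 values were part of the choice, the same difference is a description with no test and is not counted. It was 0.55 for Anxa1, 0.42 for Anxa2, 0.21 for Anxa3, 0.30 for Anxa5 and 0.28 for S100a6. With median centring the differences of Anxa2, Anxa3, Anxa5, S100a6 and S100a10 turned negative, that of Anxa3 was negative also with an offset of 0, from the processed signals and in the authors' table, and that of S100a13 was positive without background subtraction. The call for the dim Anxa6 probe was lost without HP3 array 3 (0.20), HP4 array 2 (0.20) or HP4 array 3 (0.22). The Anxa11 call held in 6 of 10 other ways of processing and the Anxa7 call in 7 of 10.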

How the results depend on the processing

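Median centring, the Cy3 channel alone and leaving the background in moved the counts of called members most, and the cause was not tested. Without background subtraction 2 probes were past 2-fold in HP3 against EB5, 6 were called and 1 was past 2-fold in HP4 against EB5, 1 was past 2-fold in HP3 against RKPG9 and 1 in HP4 against RKPG9. With an offset of 0, 1 probe was past 2-fold in HP4 against HP3. With median centring 8 were past 2-fold in HP4 against EB5 and 14 were called in HP4 against RKPG9. In the Cy3 channel alone 3 were past 2-fold in HP3 against EB5, and 4, 5 and 2 were called in HP3 against RKPG9, HP4 against RKPG9 and HP4 against HP3. Counts over all 15 probes include the genes listed on HP3 and EB5 and support nothing where those lines enter. The split of lower against higher calls in HP4 against HP3, 2 and 8, was 0 and 8 without background subtraction, 3 and 6 with an offset of 0, 2 and 5 from the processed signals and in the authors' table, 9 and 2 with median centring and 1 and 1 in the Cy3 channel alone. Changes that turned with median centring were, in HP4 against RKPG9, Anxa2 (-0.55), Anxa4 (-0.40), Anxa5 (-0.16), Anxa6 at A_65_P10472 (-0.37), S100a9 (0.49), Dysf (-0.14), Tbp (-0.24), Ppia (-0.61) and Krt18 (-0.016), in HP4 against HP3, Anxa2 (-0.066), Anxa3 (-0.26), Anxa4 (-0.33), Anxa5 (-0.10), Anxa8 (-0.27), S100a6 (-0.26), S100a9 (0.27) and S100a10 (-0.34), and in HP4 against EB5, S100a9 (0.48). Without background subtraction Anxa3 (0.090) and S100a11 (0.25) turned in HP4 against RKPG9 and S100a13 (0.050) in HP4 against HP3. With an offset of 0 Anxa3 (-0.057) turned in HP4 against HP3 and Dysf (-0.043) in HP4 against RKPG9. From the processed signals and in the authors' table alike, Anxa3 (-0.081) turned in HP4 against HP3, and Dcn (-0.0135), Dysf (-0.041) and Hprt (-0.36) in HP4 against RKPG9, and in the Cy3 channel alone S100a10 (0.10). Leaving out each array in turn gave 10 to 10, 10 to 13 and 9 to 10 calls for HP3, HP4 and RKPG9 against EB5, 5 to 7 and 7 to 10 for HP3 and HP4 against RKPG9 and 7 to 10 for HP4 against HP3. Past 2-fold the ranges were 3 to 5, 4 to 4 and 3 to 3, then 2 to 2 and 2 to 2, then 0 to 0, the lowest for HP3 against EB5 without its replicate 2. The deviations of same-numbered arrays were at most weakly related (18 pairs with r of -0.18 to 0.20, 4 of them over 0.1). Of 12 arrays, 7 matched best with their own number. These values do not settle whether the numbers pair the samples. With the replicate number as a block the calls were 10, 10 and 9 against EB5, 7 and 9 against RKPG9 and 10 for HP4 against HP3, the same as without it. Keeping outlier spots, filtering dim probes and fitting 2 lines moved no count by over 1.5 times.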

Other observations

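Over all probes 20.8% were called higher and 19.2% lower in HP4 than in RKPG9. Of 9 extraembryonic endoderm markers found by symbol (of 10), 3 rose and 3 fell from RKPG9 to HP4, with a median of 0.00. Sparc is not among them, since its probe was named for osteonectin. That probe had line means of -2.23 (EB5), -3.28 (RKPG9), -3.12 (HP3) and -3.06 (HP4). Foxa2 changed by -0.85 (-0.16 without background subtraction, -4.09 from the processed signals), the basement membrane gene Lama1 by -0.67 and Gata6 by 0.66. Tfap2c, a trophoblast and germ cell factor, changed by -1.11 and Gata3 by 0.48 (0.13 with median centring), while Krt18 changed by 0.42 and by -0.02 with median centring. Of the fibroblast markers, Dcn, the decorin gene, changed by 0.60 (-0.01 from the processed signals and in the authors' table) and Pdgfrb by 0.57 (0.07 there).

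Of 10 ES cell markers measured, 7 fell and 1 rose from RKPG9 to HP4, with a median of -0.32. Dppa3 changed by -0.85, Tcl1 by -0.76 and Esrrb by -0.67. From RKPG9 to HP3 1 fell and 2 rose (10.1% and 12.6% over all probes). Of 8 reference genes measured (of 10), 3 were called higher and 1 lower in HP4 than in RKPG9, with a median of 0.07. Hprt, counted among those called higher, changed by 0.51 at a level far below the reference RNA, with line means of -4.94 in RKPG9 and -4.42 in HP4. Its change turned to -0.36 from the processed signals and in the authors' table, so no shift of a reference gene is read from it.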
